A study of Mus musculus with 6 samples.

Results

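The genes described are the 34 glycolysis and hypoxia response genes that were listed by name and found as rows in the count tables of 6 RNA-seq libraries of cultured mouse bone marrow cells. They were matched by gene symbol to 35 of the 25722 rows of each table, because *Aldoa* has a second row with at most 7 counts that fell below the filter. All 34 genes, each annotated as protein-coding, passed the filter on low counts, as did 13842 rows in all. The libraries were made from C57BL/6 bone marrow cells labelled BM-MSCs, cultured with the vehicle DMSO (DMSO1, DMSO2 and DMSO3) or with 1 µM all-trans retinoic acid, RA (ATRA1, ATRA2 and ATRA3), for 48 h. Vehicle and RA cultures shared low-glucose DMEM, 20% fetal bovine serum, a ROCK inhibitor at 10 µM and an atmosphere of 5% O2, so that every library came from cells in low oxygen and none from cells in room air. Plastic-adherent marrow cells of early passage were used without a sort stated for these libraries. The labels speak of 2 biological replicates although 3 libraries per treatment are listed, and do not say that the 3 came from separate cultures or mice. The p-values therefore measure the spread between these libraries, which may be technical.

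Glycolysis splits glucose into pyruvate in the cytosol, and lactate dehydrogenase with the monocarboxylate transporters turns the pyruvate into lactate and exports it. When oxygen falls, the prolyl hydroxylases that mark the transcription factor subunit HIF-1α for destruction slow down, and HIF-1 then binds short sites with the core letters ACGTG near many glycolytic genes and near genes of mitophagy, vessel growth and collagen maturation. Bone marrow stromal cells and macrophages both use this programme, in the marrow niche and on activation, and many of its members are encoded by small families of paralogs of which cell types often favour one.

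The libraries fell into 2 sets that the treatment labels do not explain. Library set 1 held DMSO2, ATRA1 and ATRA2, and library set 2 held DMSO1, DMSO3 and ATRA3. The sets lay apart without overlap in 47.7% of all genes tested, and the treatments in 12.6%. The labels name no batch, and the sets were recognised from these same counts, so differences between the sets are given as descriptions without a p-value. Total counts were 15377032 to 18511905 in set 1 and 14737636 to 15032502 in set 2. The 14 macrophage markers fixed for the check of the label were all detected, with *Adgre1* at 4463 to 6379 CPM and a summed level of 20789 to 23682 CPM (read counts relative to the TMM-scaled library total). The 14 mesenchymal markers summed to 1738 to 4551 CPM, with *Nt5e* at 2 to 21 counts and *Thy1* at 0 to 7 counts per library, so these 2 stromal surface markers were near 0 in every library. Other markers of the list differed widely in level. *Cxcl12* was at 368 to 578 CPM, *Col1a1* at 414 to 1648 CPM and *Pdgfrb* at 60.3 to 139.9 CPM. *Pdgfra* was at 6.65 to 24.3 CPM, *Kitl* at 7.34 to 13.0 CPM and *Lepr* at 0.479 to 9.48 CPM. Neutrophil, endothelial, erythroid and lymphoid lists summed to at most 4.25, 21.1, 2.31 and 3.23 CPM. As a check of the treatment labels, *Cyp26b1*, which encodes an enzyme that degrades RA and is induced by it, measured 4.97, 5.96 and 4.68 CPM in DMSO1, DMSO2 and DMSO3 and 124, 109.6 and 87.1 CPM in ATRA1, ATRA2 and ATRA3 (log2 fold change 4.35, edgeR adjusted p = 0.00207). In bulk RNA, fewer cells of a type and less RNA per cell cannot be told apart.

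To show a short sequence that many of the genes share, the letters ACGTG were searched on both strands in the 250 bases before the RefSeq starts of 33 of the 34 genes (*Ndrg1* had no entry). They were present in 21 of these 33 genes (63.6%) and in 18.5% of all 27025 genes with an entry. The stretches below are from RefSeq on GRCm38.p6, in the direction of the gene, with ACGTG or its complement CACGT in capitals, and hold no annotated exon base. Only genes that hold the letters are shown. Of these, *Pgk1*, *Ldha*, *Bnip3*, *Egln3* and *P4ha2* were at least 1.5-fold higher in library set 1 without overlap. *Pfkfb3* was lower there, and *Hk2* was nearly level across all libraries. Others with the letters, such as *Hif1a* and *P4ha1*, were also at least 1.5-fold higher in set 1 and are not shown. *Eno1*, *Gapdh*, *Tpi1*, *Pfkp* and *Pdk1* were higher there to that degree and lacked the letters. The stretches of *Ldha*, *P4ha2* and *Pfkfb3* lie within the span of longer transcripts of the same gene, and the others upstream of the gene.
Pgk1 (chrX:106186920-106187003, plus strand): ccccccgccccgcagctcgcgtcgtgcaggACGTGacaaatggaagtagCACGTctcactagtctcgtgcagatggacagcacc
Ldha (chr7:46845726-46845803, plus strand): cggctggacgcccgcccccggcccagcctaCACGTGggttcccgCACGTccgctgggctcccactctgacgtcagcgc
Bnip3 (chr7:138909579-138909644, minus strand): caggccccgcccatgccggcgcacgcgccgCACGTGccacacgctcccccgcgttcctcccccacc
Egln3 (chr12:54204069-54204124, minus strand): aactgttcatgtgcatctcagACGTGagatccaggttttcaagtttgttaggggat
P4ha2 (chr11:54100816-54100880, plus strand): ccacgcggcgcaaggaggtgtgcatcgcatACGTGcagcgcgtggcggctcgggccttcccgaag
Pfkfb3 (chr2:11502108-11502173, minus strand): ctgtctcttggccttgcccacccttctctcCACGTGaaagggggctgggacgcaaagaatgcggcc
Hk2 (chr6:82774472-82774536, minus strand): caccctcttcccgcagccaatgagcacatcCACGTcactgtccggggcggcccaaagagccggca
Overlapping matches on the 2 strands, as in CACGTG, were counted separately. The *Ldha* window held 5 matches in all, the most of any window of these genes, and the matches printed begin 48 to 34 bases before the start. Of the 15 genes at least 1.5-fold higher in library set 1 that have a window, 10 held the letters, as did 1 of the 2 lower there (*Pfkfb3*), 9 of the 15 genes under 1.5-fold apart, and *Slc16a3*. Genes with and without the letters were thus found on both sides of that difference, and the letters are described here only as a match and not as a bound site.

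Per kilobase of exon, *Gapdh*, *Pkm* and *Aldoa* had the highest means of the 34 genes. Mean RPKM (CPM divided by the exon length in kilobases) over the 6 libraries was 518 for *Gapdh* (range 356 to 683), 501 for *Pkm* (323 to 723) and 458 for *Aldoa* (390.1 to 565). The ranges of these 3 genes overlapped, so that their order is not set by these libraries. *Ndrg1*, a hypoxia-induced gene of differentiation and stress, changed place with the library set, at 369 to 472 RPKM in set 2 and 159 to 188 RPKM in set 1. It was the highest of the 34 genes in DMSO1 and ATRA3, and in set 1 it lay below *Pgk1* (284 to 409.7 RPKM) and *Pgam1* (278 to 297 RPKM). *Ldha* ranged over 160.2 to 254 RPKM in set 1 and 109.8 to 123 RPKM in set 2, and *Eno1* over 169.9 to 255 and 97.7 to 113 RPKM. *Hif1a*, which encodes the oxygen-regulated subunit of HIF-1, averaged 45.8 RPKM over the 6 libraries (28.0 to 60.4). At the low end were *Egln3* at 1.67 RPKM, the neuronal enolase *Eno2* at 0.550 and the ankyrin repeat gene *Ankrd37*, a small HIF target, at 0.508.

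**Figure D1:**
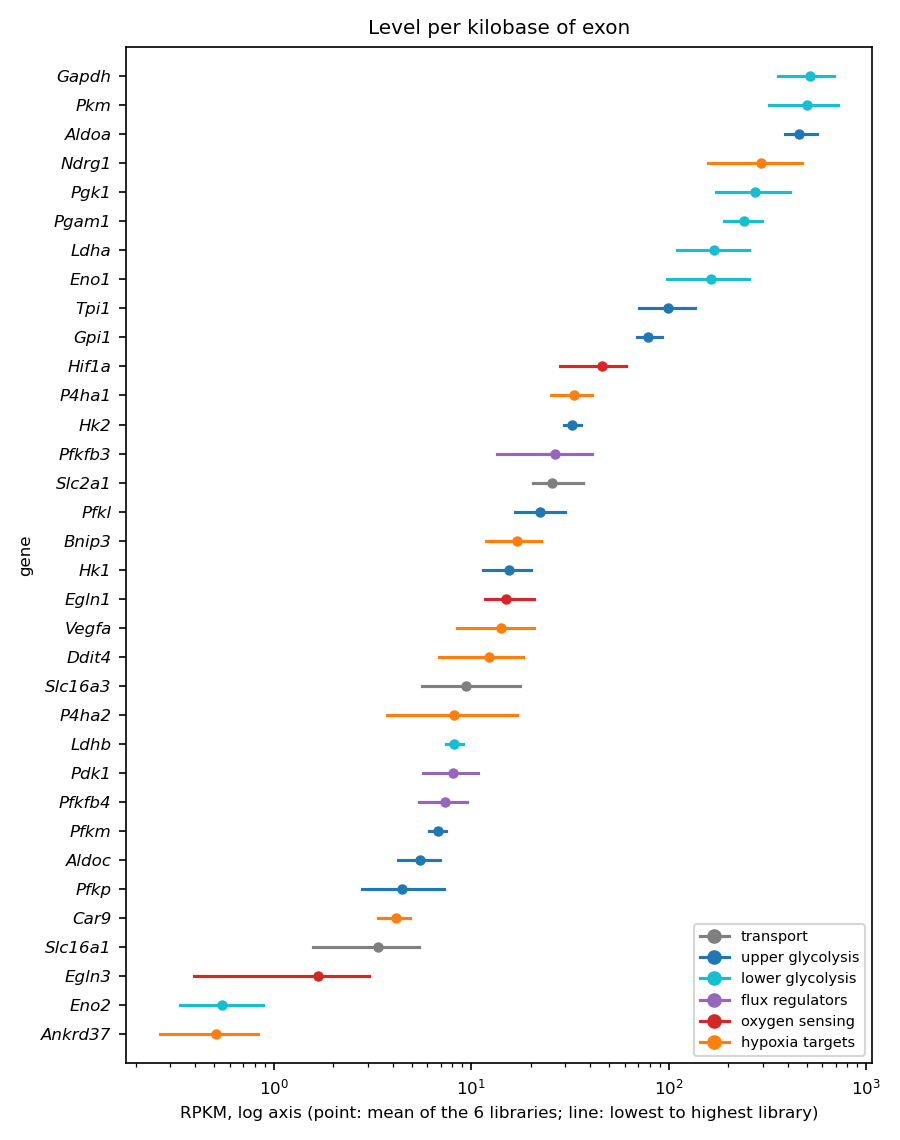
Level of the 34 genes in RPKM on a log axis, ordered by the mean of the 6 libraries (point), with a line from the lowest to the highest library and colours for the roles. Gapdh, Pkm and Aldoa stand at the top with means of 518, 501 and 458 RPKM, and Eno2 and Ankrd37 at the bottom with 0.550 and 0.508.

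Within each enzyme family 1 paralog usually held most of the signal per kilobase. *Aldoa* made up 98.3% to 99.1% of the aldolase RPKM (with *Aldoc*), *Eno1* 97.2% to 99.1% of enolase and *Ldha* 92.4% to 97.0% of lactate dehydrogenase (with *Ldhb*). The liver-type *Pfkl* held 63.9% to 70.0% of phosphofructokinase. *Hk3*, a hexokinase known from myeloid cells, held 55.7% to 68.5% of hexokinase RPKM, more than *Hk2* at 19.8% to 32.7% in every library. *Slc2a1* held 68.6% to 84.8% of the glucose transporter RPKM (with *Slc2a3* and *Slc2a6*). The oxygen sensor family was led by *Egln2* at 68.6% to 83.7% and the pyruvate dehydrogenase kinases by *Pdk4* at 44.0% to 62.3%. The mix differed between the library sets for some families: the share of *Hk3* was 64.9% to 68.5% in set 1 and 55.7% to 57.6% in set 2, and that of *Pfkfb3* was 58.9% to 66.5% in set 1 and 76.0% to 77.4% in set 2. The ranges of the 2 sets did not overlap for either gene.

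**Figure D2:**
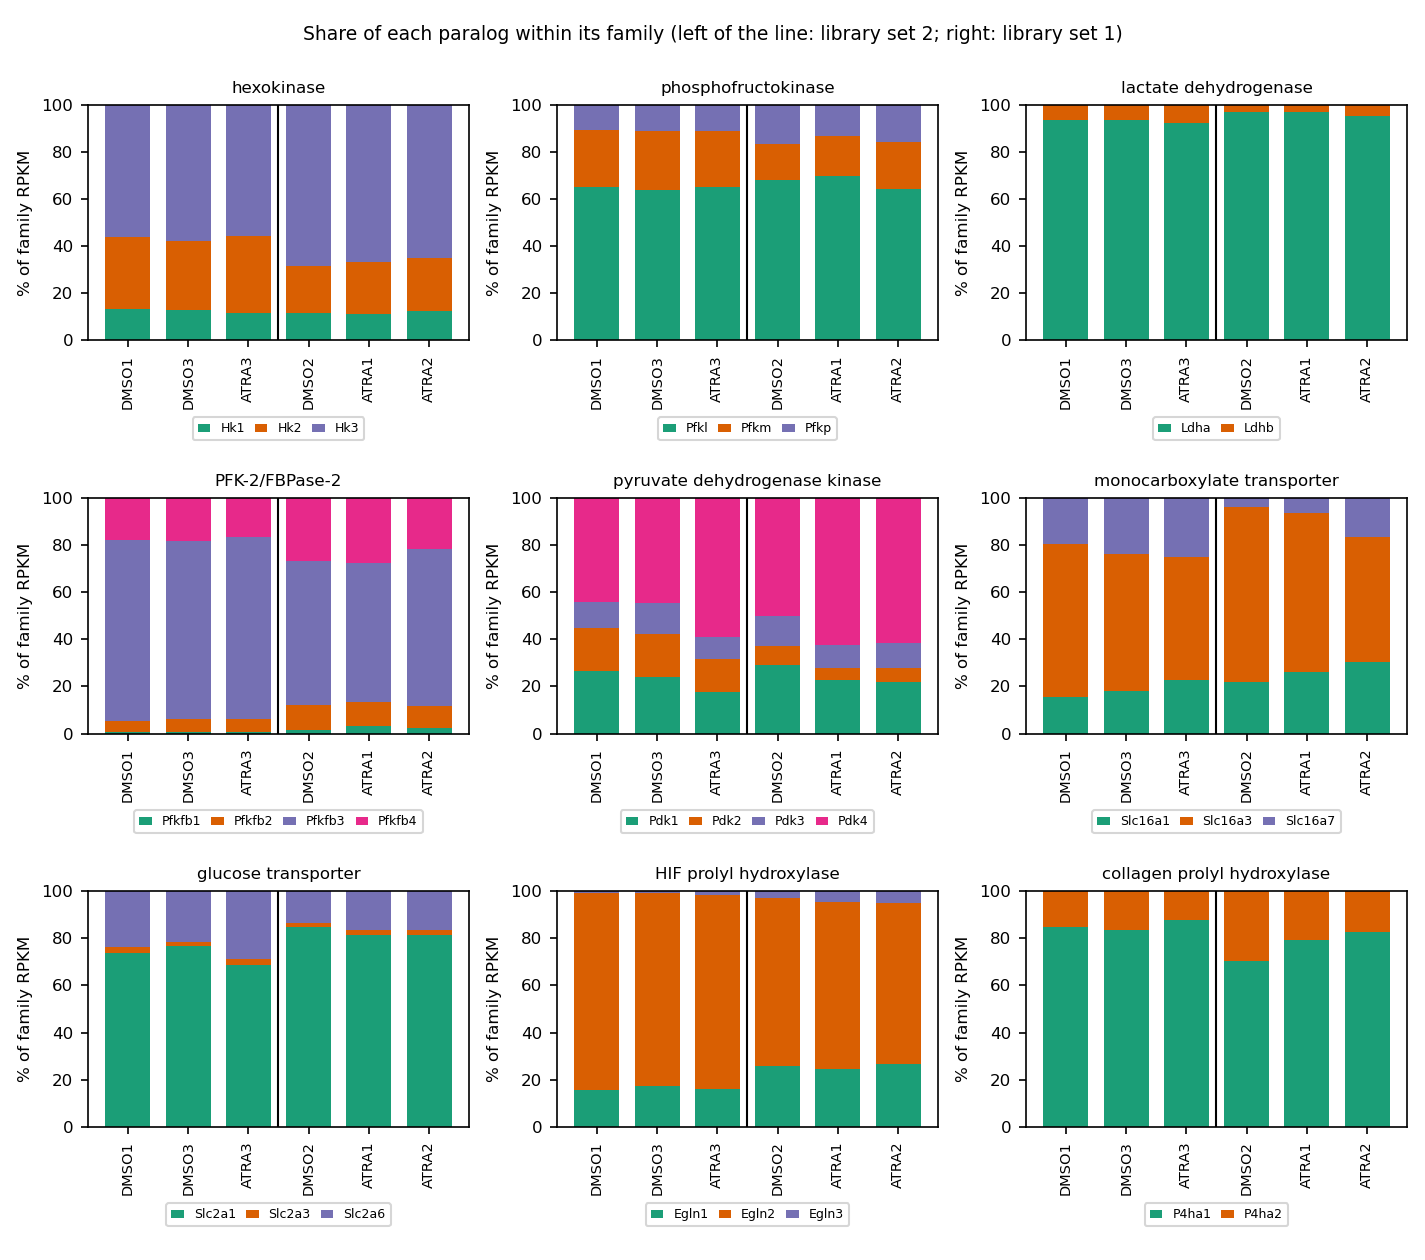
Share of each paralog in the summed RPKM of its family (percent, 0 to 100), 1 stacked bar per library, with library set 2 left of the line and library set 1 right of it. Hk3 makes up 55.7% to 68.5% of hexokinase, Ldha 92.4% to 97.0% of lactate dehydrogenase and Egln2 68.6% to 83.7% of the HIF prolyl hydroxylases.

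To examine whether RA changed the glycolysis and hypoxia genes, the 3 ATRA libraries were compared with the 3 DMSO libraries. None of the 34 genes passed the test. By edgeR's quasi-likelihood test 0 of 34 passed an adjusted p under 0.05 with a 1.5-fold change, against 0.0433% of all genes tested, and 0 of 34 had an unadjusted p under 0.05, against 5.25% of all genes. DESeq2 and edgeR's likelihood ratio test also called 0 of 34. The smallest edgeR adjusted p was 0.795. Fitted log2 fold changes ran from -0.74 for *Ankrd37* (95% CI -1.68 to 0.21) to 1.02 for *Egln3* (95% CI -0.61 to 2.64), with 16 genes higher and 18 lower and a median of -0.026, beside -0.018 for all genes. The median rested on single libraries: it was 0.26 without DMSO2 and -0.17 without ATRA1. In no gene did the 3 ATRA libraries lie on 1 side of the 3 DMSO libraries, as they did for 12.6% of all genes tested. The intervals were wide, so that for a gene such as *Ldha* the data allow a change from -0.90 to 0.98 on the log2 scale.

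**Figure D3:**
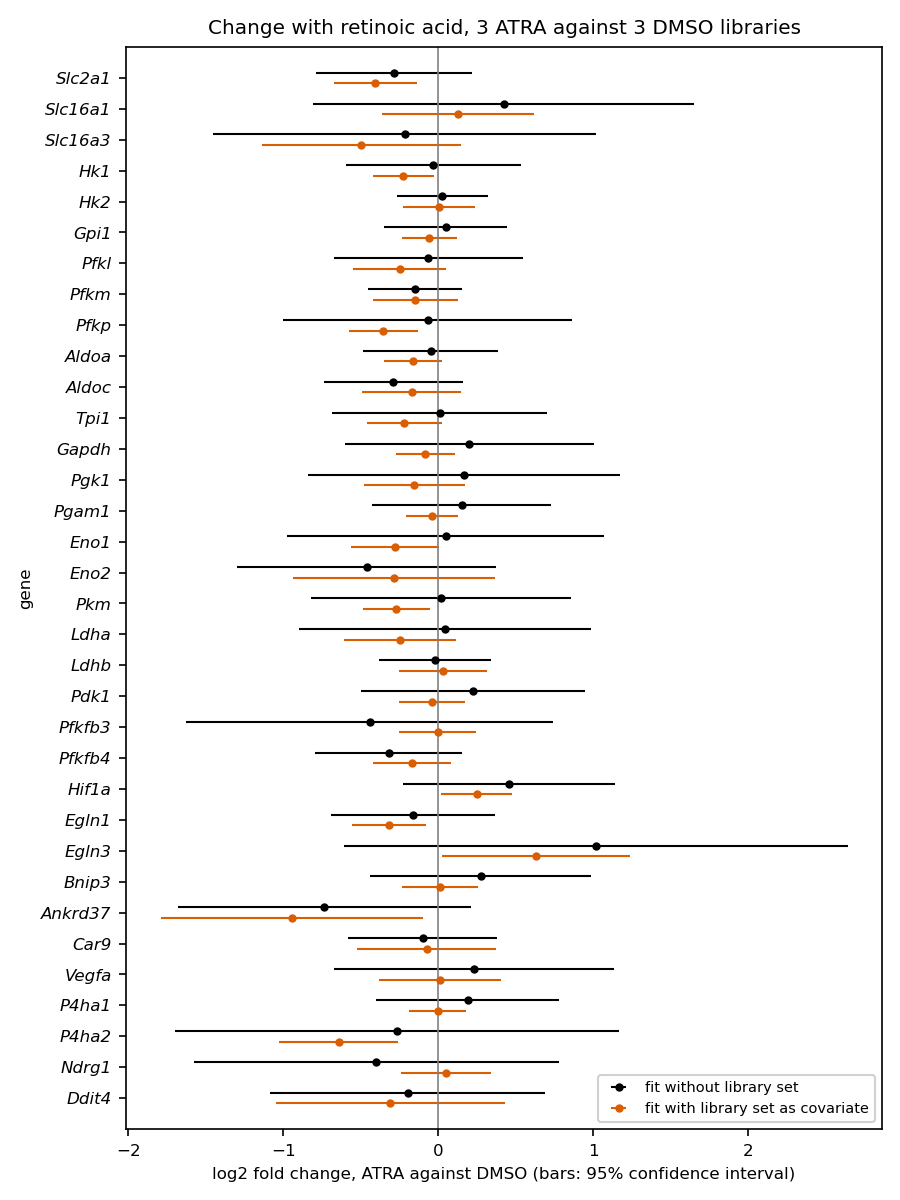
Log2 fold change of each gene with RA (3 ATRA against 3 DMSO libraries, points) with its 95% confidence interval (bars), from the edgeR fit without library set (black) and with library set as a covariate (orange). Every black interval includes 0, from Ankrd37 at -0.74 to Egln3 at 1.02, and the orange intervals are narrower for most genes.

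Among the transporters, *Slc2a1* (GLUT1), which admits glucose, measured 84.2, 129.6 and 81.2 CPM in DMSO1, DMSO2 and DMSO3 and 91.9, 78.2 and 71.9 CPM in ATRA1, ATRA2 and ATRA3. DMSO2 stood above the other 5 libraries, which overlapped between the treatments (log2 fold change -0.29, SE 0.21, edgeR adjusted p = 0.802). *Slc16a3* (MCT4), which exports lactate, measured 35.4, 93.5 and 32.6 CPM in the DMSO libraries and 74.4, 34.7 and 29.9 CPM in the ATRA libraries. High values in DMSO2 and ATRA1 set it apart from the remaining 4 libraries, which lay within 29.9 to 35.4 CPM, so the spread inside each treatment exceeded the change between them (log2 fold change -0.22, SE 0.52, edgeR adjusted p = 0.920). *Slc16a1* (MCT1), which moves lactate in both directions, measured 7.004, 22.9 and 8.32 CPM in the DMSO libraries and 24.1, 16.5 and 10.7 CPM in the ATRA libraries. Its 3 highest values came from library set 1 and averaged 2.42-fold those of set 2.

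The upper steps of the pathway, from hexokinase to triose phosphate isomerase, gave no call either. *Hk2*, the hypoxia-inducible hexokinase, measured 195, 202 and 176 CPM in the DMSO libraries and 214, 177 and 193 CPM in the ATRA libraries. These 6 values were among the closest together of the 34 genes, with a 95% CI of -0.27 to 0.32 for the log2 fold change with RA. *Pfkp*, the platelet-type phosphofructokinase, measured 43.0, 97.0 and 43.5 CPM in the DMSO libraries and 70.9, 66.6 and 37.5 CPM in the ATRA libraries, and *Tpi1*, which interconverts the triose phosphates, measured 228, 373 and 215 CPM and 349, 277 and 195 CPM in the same order. Both were higher in all 3 libraries of set 1 than in any of set 2, by 1.87-fold for *Pfkp* and 1.56-fold for *Tpi1*. *Pfkp* shares 748 exonic bases with *Pitrm1* on the opposite strand, which had 1073 to 1823 counts against 550 to 1824 for *Pfkp*, and whether the counting used strand is not given in the sources used here, so its level is uncertain. The other genes of the upper steps ranged over 98.1 to 172 CPM for *Hk1*, 446 to 598 CPM for *Gpi1* (glucose phosphate isomerase), 112 to 199 CPM for *Pfkl*, 20.3 to 24.8 CPM for *Pfkm*, 1135 to 1645 CPM for *Aldoa* and 13.8 to 22.7 CPM for *Aldoc*. Their log2 fold changes with RA lay between -0.29 for *Aldoc* and 0.047 for *Gpi1*, none past the test.

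All 8 genes of the lower steps, from *Gapdh* to the lactate dehydrogenases, were split without overlap between the library sets. *Gapdh*, the glyceraldehyde phosphate dehydrogenase often used as a reference gene, measured 1641, 2823 and 1518 CPM in DMSO1, DMSO2 and DMSO3 and 2633, 2771 and 1469.6 CPM in ATRA1, ATRA2 and ATRA3. *Pgk1*, the first ATP-forming step, measured 408, 910.1 and 419.6 CPM in the DMSO libraries and 919, 637 and 391 CPM in the ATRA libraries. In both genes DMSO2 sat with ATRA1 and ATRA2, and ATRA3 sat with DMSO1 and DMSO3. *Eno1*, the main enolase, measured 609, 1370.5 and 605 CPM in the DMSO libraries and 1231, 914 and 526 CPM in the ATRA libraries. *Pkm*, pyruvate kinase, measured 1931, 3616 and 1936 CPM in the DMSO libraries and 3216, 2724 and 1616 CPM in the ATRA libraries. The same grouping was seen in both, with set 1 at 1172 ± 234 CPM (SD, n = 3) for *Eno1* against 579.8 ± 46.8 CPM in set 2. *Ldha*, which reduces pyruvate to lactate, measured 407, 842 and 405 CPM in the DMSO libraries and 807, 530.4 and 364 CPM in the ATRA libraries, with means of 551 ± 252 CPM (SD, n = 3) in DMSO and 567 ± 224 CPM (SD, n = 3) in ATRA. The difference of these means was far below the SD of either (log2 fold change 0.041, SE 0.39, edgeR adjusted p = 0.983). *Eno2* ran the other way at a low level, with 4.13, 2.39 and 2.48 CPM in the DMSO libraries and 2.00, 1.59 and 2.93 CPM in the ATRA libraries, so that every library of set 1 lay below every library of set 2.

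Of the remaining lower genes, *Pgam1* (phosphoglycerate mutase) ranged over 376 to 588 CPM and *Ldhb*, the other lactate dehydrogenase subunit, over 11.7 to 14.2 CPM. A copy of *Pgam1*, *Pgam1-ps2*, had counts equal to 10.5% to 13.7% of the *Pgam1* count in 5 libraries and 0 counts in ATRA2. Whether reads were divided between the 2 rows was not tested, so the level of *Pgam1* in single libraries is uncertain. With both rows summed, the log2 difference of set means was 0.55. *Pkm* shares 767 exonic bases on the same strand with *Gm49759*, which had 774 to 2405 counts against 23693 to 67991 for *Pkm*.

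The 3 regulators set how fast pyruvate is made and where it goes. *Pdk1*, the kinase that keeps pyruvate out of the mitochondria, measured 46.0, 78.8 and 49.0 CPM in the DMSO libraries and 84.3, 74.7 and 44.3 CPM in the ATRA libraries. Its 3 set 1 values, 74.7 to 84.3 CPM, lay above the 3 of set 2, 44.3 to 49.0 CPM, and the difference of ATRA from DMSO was 0.0095 within set 1 and -0.10 within set 2 on the log2 scale. *Pfkfb3*, which makes the fructose 2,6-bisphosphate that activates phosphofructokinase, measured 308, 111 and 273 CPM in the DMSO libraries and 103, 127 and 279 CPM in the ATRA libraries. It was lower in set 1, as were *Aldoc*, *Eno2* and *Ldhb* among the 17 enzymes, of which 12 were higher there without overlap. Set 1 averaged 113 ± 12.3 CPM and set 2 287 ± 18.6 CPM (SD, n = 3 each), a log2 difference of -1.34, while its change with RA inside the sets was 0.038 and -0.052. *Pfkfb4*, its paralog, ranged over 26.6 to 31.5 CPM in set 1 and 37.9 to 46.3 CPM in set 2 and so was lower in set 1 as well.

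Among the oxygen sensing genes, *Hif1a* measured 165, 319 and 199 CPM in DMSO1, DMSO2 and DMSO3 and 348, 356 and 232 CPM in ATRA1, ATRA2 and ATRA3. The ATRA libraries of each set lay above the DMSO libraries of the same set, and the 2 treatments overlapped because DMSO2 exceeded ATRA3 (log2 fold change 0.45, 95% CI -0.23 to 1.14, edgeR adjusted p = 0.795). *Egln3* (PHD3), a HIF prolyl hydroxylase that is itself a HIF target, measured 1.05, 6.01 and 1.72 CPM in the DMSO libraries and 8.06, 6.91 and 3.002 CPM in the ATRA libraries. Within each set the ATRA values were again the higher, and across the sets *Egln3* had the largest difference of the 34 genes, 3.74-fold higher in set 1, at a level of a few CPM. *Egln1* (PHD2), the main prolyl hydroxylase acting on HIF-1α, ranged over 42.1 to 74.8 CPM and went the other way with RA inside the sets, by -0.43 in set 1 and -0.20 in set 2 on the log2 scale.

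The HIF targets outside glycolysis did not move as one. *Bnip3*, a mitophagy receptor, measured 26.9, 46.7 and 31.1 CPM in the DMSO libraries and 47.7, 51.2 and 27.7 CPM in the ATRA libraries. *Vegfa*, the vascular growth factor, measured 36.5, 88.9 and 41.5 CPM in the DMSO libraries and 85.0, 62.2 and 48.4 CPM in the ATRA libraries. Both were higher in the 3 libraries of set 1 without overlap, by 1.70-fold and 1.86-fold, and RA against DMSO gave 0.27 (edgeR adjusted p = 0.835) and 0.23 (edgeR adjusted p = 0.885) on the log2 scale. *P4ha1*, a catalytic subunit of the collagen prolyl 4-hydroxylase, measured 104, 169 and 107 CPM in the DMSO libraries and 169, 155 and 109.9 CPM in the ATRA libraries. *P4ha2*, the other such subunit, measured 28.1, 107 and 32.2 CPM in the DMSO libraries and 66.6, 48.9 and 23.4 CPM in the ATRA libraries. *P4ha2* was highest in DMSO2 and lowest in ATRA3, and in each set every ATRA library lay below every DMSO library, which was not so for *P4ha1*. *Ndrg1* measured 3112, 1046 and 2437 CPM in the DMSO libraries and 1077, 1242 and 2678 CPM in the ATRA libraries. Like *Pfkfb3* it was lower in set 1, at 1122 ± 105 CPM against 2742 ± 342 CPM (SD, n = 3 each). The carbonic anhydrase *Car9*, the mTOR inhibitor *Ddit4* and *Ankrd37* overlapped between the sets, with ranges of 7.74 to 11.3 CPM, 12.1 to 32.0 CPM and 0.409 to 1.28 CPM. *Ankrd37* had 6 to 24 counts per library and overlaps *Ufsp2* on the opposite strand, which had 624 to 1035 counts, so its values are uncertain.

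The division by library set was wider than that by treatment. The sets were recognised from these same counts, so a wide division was partly built in and is given only as a description. Without overlap between the sets were 27 of the 34 genes (79.4%), against 47.7% of all genes tested, 21 of them higher and 6 lower in set 1. At least 1.5-fold apart without overlap were 18 genes (52.9%), against 21.9% of all genes, 15 of them higher in set 1 (background 11%) and 3 lower (*Pfkfb3*, *Ndrg1* and *Eno2*; background 10.9%). The median log2 difference of the 34 genes, set 1 minus set 2, was 0.54, beside -0.006 for all genes tested. All 8 genes of the lower steps were without overlap, as were 7 of 9 of the upper steps, 3 of 3 flux regulators, 3 of 3 oxygen sensing genes, 5 of 8 hypoxia targets and 1 of 3 transporters. The largest log2 differences were 1.90 for *Egln3*, 1.34 for *P4ha2*, 1.28 for *Slc16a1*, 1.00 for *Eno1* and 1.00 for *Pgk1* in the direction of set 1, and -1.34 for *Pfkfb3* and -1.29 for *Ndrg1* in that of set 2. Of the 12 tested mesenchymal markers 5 were higher in set 1 without overlap (41.7%, against 47.7% of all genes), and 7 overlapped between the sets. Of the 14 macrophage markers 9 were lower and 2 higher in set 1 without overlap (78.6% in both directions). Set 1 also held the deeper libraries. The summed mesenchymal level was 2301 to 4551 CPM in set 1 and 1738 to 2620 CPM in set 2, and the summed macrophage level 20789 to 22036 and 21450 to 23682 CPM. The part of these markers and of depth in the division was not tested.

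**Figure D4:**
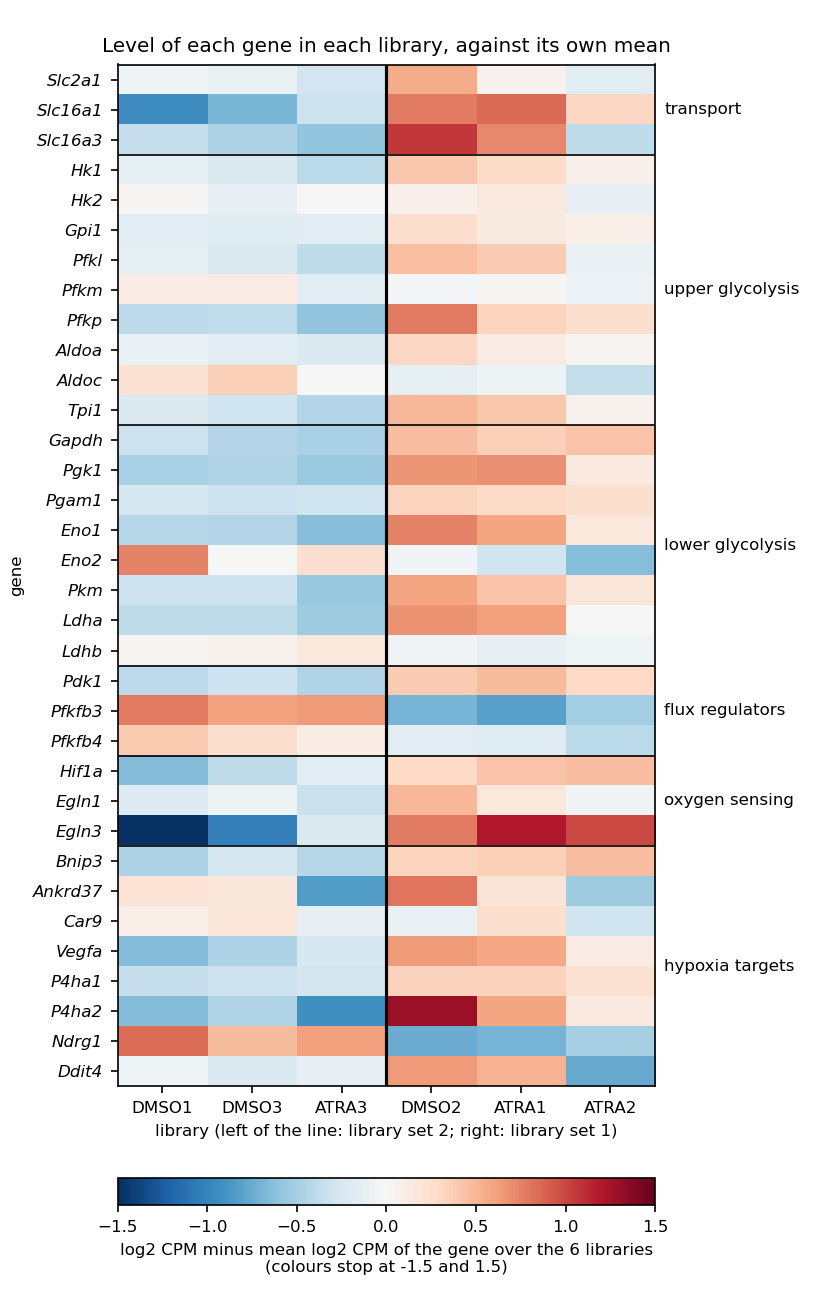
Log2 CPM of each of the 34 genes (rows, grouped by role) in each library (columns) minus the gene's mean over the 6 libraries, with library set 2 left of the line and set 1 right of it. Most glycolytic rows are red in DMSO2, ATRA1 and ATRA2 and blue in DMSO1, DMSO3 and ATRA3, and Pfkfb3 and Ndrg1 show the opposite colours.

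Libraries of 1 treatment within a set were not equally close. *Slc16a3* was 74.4 CPM in ATRA1 and 34.7 CPM in ATRA2, and *Ddit4* was 29.5 and 12.1 CPM. Of the 34 genes 28 were higher in ATRA1 than in ATRA2, with a median absolute log2 difference of 0.236 (0.223 over all genes). DMSO1 and DMSO3 differed by a median of 0.0882 for these genes (0.123 over all genes), with 18 of 34 higher in DMSO1. The shares of all genes higher in ATRA1 or in DMSO1 are not given here, so these counts cannot be called particular to the 34 genes.

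Because each treatment had libraries in both sets, the change with RA was also read inside the sets, where it rested on DMSO2 alone as the vehicle of set 1 and on ATRA3 alone as the RA library of set 2. With RA 20 of 34 genes were lower in both sets (58.8%, against 35% of all genes tested), 2 were higher in both (*Hif1a* and *Egln3*; 5.88%, against 30.9% of all genes) and 12 went opposite ways. Of the 17 enzymes of the pathway 14 were lower in both sets (82.4%). Every ATRA library lay below every DMSO library of its own set in 15 of 34 genes (44.1%, against 23.5% of all genes), among them *Slc2a1*, *Slc16a3*, *Pfkp*, *Eno1*, *Pkm*, *Ldha* and *P4ha2*, and above in 2, the same *Hif1a* and *Egln3* (background 18.5%). The steps were small for most enzymes, such as -0.36 and -0.16 for *Ldha* and -0.064 and -0.10 for *Gapdh* on the log2 scale in sets 1 and 2, and larger for *P4ha2* (-0.90 and -0.36). Of the 12 mesenchymal markers tested 8 were lower with RA in both sets, and 3 (*Lepr*, *Pdgfra* and *Cxcl12*) were higher in both. *Lepr*, the leptin receptor, rose with library set as a covariate (3.58 on the log2 scale, edgeR adjusted p = 0.00644), at 0.479 to 9.48 CPM, and *Ly6a*, which encodes a surface antigen of stromal progenitors, fell by 0.91 in that fit (edgeR adjusted p = 0.0152). Without the covariate neither passed the test (edgeR adjusted p = 0.292 and 0.172). *Col1a1*, a chain of type I collagen, was at 1648 CPM in DMSO2 against 1131 and 563 in ATRA1 and ATRA2, and 414 in ATRA3 against 732 and 779 in DMSO1 and DMSO3. Of the macrophage markers 3 of 14 were lower and 6 higher in both sets. The part of these markers in the changes of the 34 genes was not tested.

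**Figure D5:**
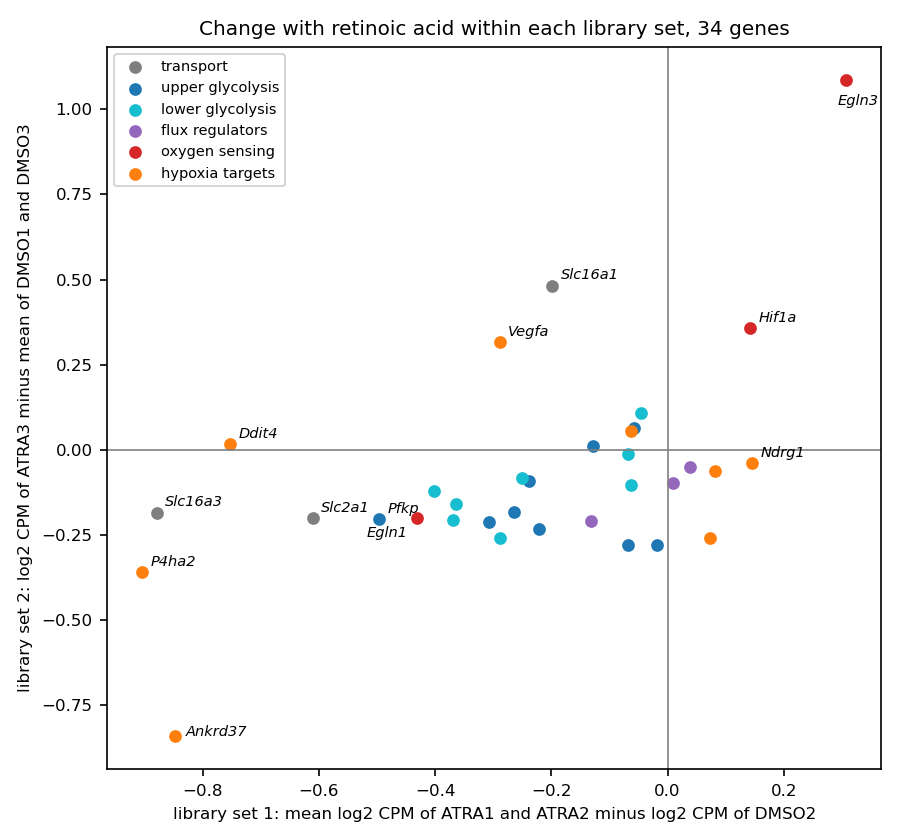
Change with RA inside library set 1 (x axis, mean log2 CPM of ATRA1 and ATRA2 minus DMSO2) and inside library set 2 (y axis, log2 CPM of ATRA3 minus the mean of DMSO1 and DMSO3), 1 point per gene, coloured by role. The lower left corner holds 20 of the 34 genes, and Hif1a and Egln3 alone are in the upper right corner.

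With library set as a covariate in the edgeR fit, still 0 of 34 genes passed the adjusted p under 0.05 with 1.5-fold, where 1.54% of all genes did. The median log2 fold change of the 34 genes was then -0.16, beside -0.0041 for all genes, with 26 lower and 8 higher. The smallest edgeR adjusted p was 0.129, for *P4ha2* (log2 fold change -0.64, SE 0.16). Unadjusted p-values under 0.05 in this edgeR fit were found for 7 genes in the lower direction (*Slc2a1*, *Hk1*, *Pfkp*, *Pkm*, *Egln1*, *P4ha2* and *Ankrd37*; 8.44% of all genes) and 2 in the higher direction (*Hif1a* and *Egln3*; 6.7% of all genes), and none of the 9 held after adjustment. *Hif1a* was fitted at 0.25 (edgeR adjusted p = 0.307) and *Egln3* at 0.63 (edgeR adjusted p = 0.315). The covariate was itself read from these counts, so this fit is a description beside the first.

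Other genes of the same pathways gave no calls in the fit without library set. Of 30 further genes of glycolysis and pyruvate use that were tested, 0 passed the test with RA and 2 had an unadjusted p under 0.05 in edgeR. Of 44 further hypoxia genes 0 passed and 2 had such a p. Of all genes tested 0.0433% passed and 5.25% had such a p, so both lists were near the share of all genes. *Pdk4*, the pyruvate dehydrogenase kinase of fasting, measured 34.2, 60.8 and 40.7 CPM in the DMSO libraries and 104, 94.3 and 66.8 CPM in the ATRA libraries, with all ATRA libraries above all DMSO libraries (log2 fold change 0.96, edgeR adjusted p = 0.611). *Cited2*, which competes with HIF-1α for its coactivator, measured 149, 146 and 133 CPM and 98.3, 88.1 and 106 CPM in the same order, with all ATRA libraries below (log2 fold change -0.55, edgeR adjusted p = 0.355). The low *Pfkfb1* was fitted at 0.87 and *Arnt2*, a partner of HIF, at -0.94, with ranges of 1.03 to 2.95 CPM and 1.84 to 5.48 CPM. With library set as a covariate *Pdk4* rose by 0.77 on the log2 scale (edgeR adjusted p = 0.0150). Also under 0.05 in that fit, but short of 1.5-fold, were the collagen crosslinking enzyme *Lox* at -0.56 (edgeR adjusted p = 0.0277) and *Cited2* at -0.53 (edgeR adjusted p = 0.0447).

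Between the library sets, 6 of the 30 further glycolysis genes (20%) and 18 of the 44 further hypoxia genes (40.9%) were at least 1.5-fold apart without overlap, where 21.9% of all genes were. In the hypoxia list 15 of the 18 were higher in set 1. Set 1 minus set 2 was largest for *Angptl4* (2.30) and *Anln* (2.04) in that list and for *Pdk4* (0.89), *Hk3* (0.84) and *Pfkfb1* (0.81) in the glycolysis list, on the log2 scale. In the other direction stood *Hif3a* (-1.45), *Siah2* (-1.08) and *Narf* (-0.59) among the hypoxia genes and *Gpd1* (-1.28), *Pgam2* (-0.85) and *Slc16a7* (-0.84) among the glycolysis genes. *Pdk4*, *Gpd1* and *Slc16a7* overlapped between the sets. *Angptl4*, a secreted lipase inhibitor and HIF target, was at 4.15 to 7.23 CPM in set 1 and 0.756 to 1.91 CPM in set 2, and the proliferation gene *Anln* at 33.98 to 73.2 CPM and 12.1 to 14.4 CPM.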

How the data were processed

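RNA-seq libraries of BM-MSC cultures, 3 with DMSO and 3 with ATRA, were used. The authors deposited 1 table of raw read counts per gene for each library. The submitters' processing notes name Bowtie2 2.2.3 and mm10, and the counting program, gene annotation and strand setting are not given in the sources used here. The labels give 1 µM ATRA for 48 h, whereas the study's methods give a lower concentration and a shorter time for its RNA work. No column was left unmapped (0 columns).

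Totals were 14737636 to 18511905 counts per library, and 3 counts equal 0.162 to 0.204 CPM. Counts were filtered with filterByExpr, scaled by TMM and tested with edgeR 4.0.16 (R 4.3.3, quasi-likelihood F test, Benjamini-Hochberg over 13842 genes), with a call at adjusted p under 0.05 and 1.5-fold. The scripts were tested on simulated counts. Log2 CPM used a prior count of 2. RPKM used union exon lengths from GENCODE on GRCm38. Set differences are differences of mean log2 CPM, and folds are 2 to that power.

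The members, gene lists and library sets were chosen with earlier results of these data known. Genes were named by a rule: 10 chosen members and those 1.5-fold apart without overlap between the sets in every library, and of the other lists those with an unadjusted p under 0.05 or the 3 largest set differences in each direction. *Lox* under the covariate, and *Adgre1*, *Nt5e*, *Thy1*, *Col1a1*, *Lepr*, *Ly6a*, *Pdgfra*, *Pdgfrb*, *Kitl* and *Cxcl12* among the markers, were named after their values were seen. A gene of the further hypoxia list that the rule would name is not reported here. Alternatives were DESeq2 1.42.0, other scalings and filters, the replicate number as a block, library set as a covariate and leaving out each library.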

Additional observations from a re-analysis of the deposited data

How the results depend on the processing

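The count of 0 of 34 genes called held in each alternative run, by edgeR's likelihood ratio test, DESeq2, other scalings and filters, and without each library, where the smallest edgeR adjusted p was 0.352. Reversed signs, none past the test, were found with library size scaling (*Hk1* 0.011, *Ldhb* 0.021), with upper quartile scaling (*Ldhb* 0.0015) and with library set as a covariate (*Gpi1* -0.058, *Tpi1* -0.22, *Gapdh* -0.084, *Pgk1* -0.15, *Pgam1* -0.041, *Eno1* -0.28, *Pkm* -0.27, *Ldha* -0.25, *Ldhb* 0.031, *Pdk1* -0.042, *P4ha1* -0.0038, *Ndrg1* 0.049). The first 2 scalings moved the median of all genes from -0.018 to 0.025 and 0.0042. Set 1 held ATRA1 and ATRA2 but only DMSO2 of the vehicle libraries. The fit without the covariate therefore carries part of the set difference into the change with RA. How much of each reversed sign this makes up was not tested. Leaving out each library in turn changed the sign of 18 of 34 genes (*Aldoa* -0.14 to 0.13, *Car9* -0.25 to 0.012, *Ddit4* -0.56 to 0.12, *Egln1* -0.30 to 0.092, *Eno1* -0.24 to 0.57, *Gpi1* -0.029 to 0.21, *Hk1* -0.16 to 0.20, *Hk2* -0.031 to 0.091, *Ldha* -0.28 to 0.50, *Ldhb* -0.11 to 0.060, *P4ha2* -0.60 to 0.64, *Pfkl* -0.28 to 0.18, *Pfkp* -0.27 to 0.45, *Pgk1* -0.15 to 0.66, *Pkm* -0.18 to 0.40, *Slc16a3* -0.72 to 0.46, *Tpi1* -0.18 to 0.32, *Vegfa* -0.00067 to 0.76) and not of the other 16, and the median of the 34 ran from -0.17 (without ATRA1) to 0.26 (without DMSO2).

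Of the further pathway genes, 0 were called as reported; an unadjusted p under 0.05 with 1.5-fold gave 2 of 30 in glycolysis and 1 of 44 in hypoxia, and, with library set as a covariate, 1 of 30 in glycolysis (*Pdk4*) and 1 of 44 in hypoxia. Across the alternatives the genes 1.5-fold apart between the library sets numbered 17 to 22 and the median difference of all 34 was 0.50 to 0.65. The deviations of libraries with the same replicate number correlated at -0.51, 0.34 and 0.57 for numbers 1, 2 and 3. Numbers 2 and 3 each join libraries of 1 library set and number 1 does not. These values therefore cannot show whether the numbers pair cultures. With the number as a replicate block the median of the 34 genes was -0.020 and 0 were called. The main limits are 3 libraries per treatment that lie in unequal numbers in the library sets, wide intervals, and *Ankrd37*, *Eno2* and *Egln3* at counts too low for a firm level.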

Other observations

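Some rows were at 0 in single libraries while every other library had at least 100 counts. ATRA2 held 7 such rows, ATRA1 held 2, ATRA3 held 1 and the DMSO libraries held 0. *Pgam1-ps2*, the copy of the mutase gene *Pgam1*, was 1 of the 7 in ATRA2, with 581, 1511 and 651 counts in DMSO1, DMSO2 and DMSO3 and 1242, 0 and 599 counts in ATRA1, ATRA2 and ATRA3. *Pgam1* itself was at 552 CPM in ATRA2, beside 588 and 571 CPM in DMSO2 and ATRA1.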
